A study of Mus musculus with 6 samples.

Results

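The clade A serpins are a family of secreted proteins whose genes carry symbols that begin with Serpina. The members described here are the 20 measured mouse genes with such a symbol, out of 27381 genes in all, of which 19 encode proteins and 1, Serpina4-ps1, is a transcribed pseudogene. The symbols were read from the array's annotation. It gives no symbol for 587 of the 27381 genes, so further genes of the family may be among those. The RefSeq gene order has Serpina3c, Serpina3e-ps, Serpina3h and Serpina3k beside members. These are not among the 20, so the family is incomplete here, and genes without a symbol were not analysed. The family was taken up with the values of these same arrays known, so the differences between groups are given as a description and are no independent evidence.

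The study examined the part of glutaredoxin-1, an enzyme encoded by Glrx that removes glutathione from protein thiols, in liver fibrosis of aging and diet. Its arrays asked which liver genes differ when the enzyme is raised in hepatocytes of mice with diet-induced steatohepatitis. AAV-Hep-Glrx mice received an adeno-associated virus that carries mouse Glrx with an HA/FLAG tag and a viral RNA element (WPRE) behind the promoter of Serpina7, which is active in hepatocytes. AAV-Hep-control mice received a virus made from the empty plasmid of the same kind. Both groups were C57BL/6J mice, described as wild-type males, put at 10 weeks of age on a diet that took 40% of its energy from palm oil and 20% from fructose and held 2% cholesterol, and they ate it for 32 weeks. Both were injected intraperitoneally with 1e+12 vector genomes after 20 weeks on the diet and kept for 12 weeks more. Liver RNA from 5 or 6 mice per group was combined into 3 pools per group, AAV-Hep-Glrx 1 to 3 and AAV-Hep-control 1 to 3, and each pool was measured on 1 Affymetrix array. The sources used here do not say how the mice were divided among the pools, and the spread between pools is not the spread between mice.

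An inhibitory serpin holds out a flexible loop as bait. The protease that cleaves the loop is swung to the far side of the serpin and trapped there, and both are spent. Hepatocytes secrete most of the plasma serpins of clade A, among them alpha-1 antitrypsin (Serpina1), which guards tissue against neutrophil elastase, and antichymotrypsin (Serpina3), an acute phase protein. Corticosteroid-binding globulin (Serpina6) and thyroxine-binding globulin (Serpina7) kept the serpin fold but carry hormones in place of trapping proteases. In the mouse, Serpina1 and Serpina3 have multiplied into clusters of near-identical copies, and the kallistatin gene, active in humans, is the pseudogene Serpina4-ps1.

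Because so much of the family consists of copies, the sequences in front of the genes are shown first. The RefSeq promoter table (build GRCm38.p6) held 16 of the 20 members. The 4 hepatic alpha-1 antitrypsin copies among the members share a stretch with a TGTTTGC match followed by a GTTAAT match. The stretches are printed here as the 130 bases before the GTTAAT match and the 15 that begin with it, all on the minus strand. They lie at chr12:103738201-103738345 (Serpina1b), chr12:103904963-103905107 (Serpina1c), chr12:103773635-103773779 (Serpina1d) and chr12:103956961-103957105 (Serpina1e). The capitals mark the TGTTTGC and GTTAAT matches.
Serpina1b: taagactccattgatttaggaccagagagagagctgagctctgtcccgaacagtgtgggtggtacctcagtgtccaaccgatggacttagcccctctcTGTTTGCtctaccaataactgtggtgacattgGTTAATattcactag
Serpina1c: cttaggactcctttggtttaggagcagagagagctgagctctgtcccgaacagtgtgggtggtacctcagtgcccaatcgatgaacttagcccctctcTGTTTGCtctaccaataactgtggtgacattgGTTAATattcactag
Serpina1d: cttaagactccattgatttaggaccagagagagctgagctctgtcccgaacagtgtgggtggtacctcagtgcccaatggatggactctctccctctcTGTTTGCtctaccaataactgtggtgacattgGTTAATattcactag
Serpina1e: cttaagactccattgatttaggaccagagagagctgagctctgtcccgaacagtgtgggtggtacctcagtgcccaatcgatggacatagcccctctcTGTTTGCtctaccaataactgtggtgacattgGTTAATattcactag

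Within these 145 bases Serpina1e was identical to Serpina1c at 139 positions and to Serpina1d at 139 positions, with 6 differences from each. Serpina1c and Serpina1d differed from each other at 10 positions. Aligned with gaps, Serpina1b matched Serpina1e at 140 bases, with 3 mismatches and 4 gap bases. Serpina1e was therefore no less like Serpina1c and Serpina1d in this stretch than they were like each other. The stretches sit at different distances from the annotated starts. The GTTAAT match begins 26 bases upstream of the start of Serpina1b, 27 of Serpina1c, 16 of Serpina1d and 78 of Serpina1e.

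The promoter of Serpina7 is shown because a promoter of this gene drives the vector. It is the mouse genome's own sequence and not that of the plasmid. These are the 250 bases before the gene's start, at chrX:139085237-139085486 on the minus strand, with capitals for a GTTAAT match that begins 57 bases upstream and a TATAAA match that begins 10 bases upstream.
Serpina7: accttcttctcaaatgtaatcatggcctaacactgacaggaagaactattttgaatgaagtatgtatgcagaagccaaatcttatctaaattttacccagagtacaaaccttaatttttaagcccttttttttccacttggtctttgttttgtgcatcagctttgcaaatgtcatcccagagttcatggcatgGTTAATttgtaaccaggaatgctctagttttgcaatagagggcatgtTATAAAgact

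Over the 250 bases upstream of each start, on both strands, GTTAAT was found in 5 of the 16 member promoters (Serpina1b, Serpina1c, Serpina1d, Serpina1e and Serpina7) and in 6.52% of 27025 mouse promoters of the same length. TGTTTGC was found in 5 members, the same 4 alpha-1 antitrypsin copies and Serpina3f, and in 4.3% of all promoters. TATAAA was found in 4 members (Serpina3a, Serpina3b, Serpina3f and Serpina7) and in 13% of all, and TTCNNNGAA in 4 members (Serpina1f, Serpina3f, Serpina3i and Serpina11) and in 7.18% of all. These are matches of letters only, the motifs do not overlap one another in the sequences printed, and copies of 1 ancestral promoter do not count as separate finds.

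The values are log2 expression, so a difference of 1 is a doubling, and a standard error (SE) is that of the fitted difference. The arrays were alike, with medians between 3.893 and 3.949 and correlations between pairs of arrays from 0.987 to 0.991 across genes. Glrx itself was 6.60, 7.77 and 7.24 in AAV-Hep-Glrx 1, 2 and 3, against 6.11, 6.03 and 5.66 in AAV-Hep-control 1, 2 and 3, 2.41-fold higher with no overlap. In the fit over all genes (limma, Benjamini-Hochberg, adjusted p under 0.1), 1 gene passed, or 0.00365% of those tested. It was Zbtb16, a zinc finger transcription factor, 4.35-fold lower in AAV-Hep-Glrx (adjusted p = 0.0896). The count was 2 without AAV-Hep-control 1, and 0 without AAV-Hep-Glrx 1 or 3 or AAV-Hep-control 2 or 3. The hepatocyte markers were present, all 14 measured lying above the median gene. Their means were lower in AAV-Hep-Glrx for 9 (50.4% of all genes) and higher for 5 (49.5%), with a median log2 difference of -0.04. Their summed linear level was 28201 to 28736 in AAV-Hep-Glrx pools, against 29105 to 29627 in AAV-Hep-control pools. Of 6 pancreas or kidney markers, 5 lay below the median gene. B cell markers were lower on average for 9 of 9 measured genes (50.4% of all genes). Their summed level was 124 to 162 in AAV-Hep-Glrx pools and 167 to 199 in AAV-Hep-control pools. In whole liver, fewer cells of a type and less RNA per cell cannot be told apart.

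Across the family, 0 of the 20 members passed the adjusted threshold (limma adjusted p from 0.847 to 0.995). At an unadjusted p under 0.05 there was 1 higher member and 0 lower, where all genes gave 2.76% higher and 3.01% lower. The mean was higher in AAV-Hep-Glrx for 14 members and lower for 6, against 49.5% and 50.4% of all genes, and the median difference of the 20 was 0.05 on the log2 scale, against -0.00122 for all genes. That median was 0.0165 without AAV-Hep-control 2, 0.0273 without AAV-Hep-Glrx 2, and 0.1023 over the 12 members above the median gene. Only Serpina4-ps1 had 3 AAV-Hep-Glrx pools above all 3 AAV-Hep-control pools, which 5.51% of all genes had. No member had them all below, which 5.38% of all genes had. Serpina4-ps1 and Serpina1e were the members more than 2-fold higher, as were 13 of all genes (0.0475%), and 0 members were more than 2-fold lower (0.0511% of all genes). A difference of 0.3 or more was found in 3 members (2.73% of all genes) and of -0.3 or less in 3 (3.41%). Apart from Serpina4-ps1 and Serpina1e, the other 18 members lay between -0.34 and 0.32. No reading is drawn from these counts, since the family was chosen on this contrast.

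**Figure D1:**
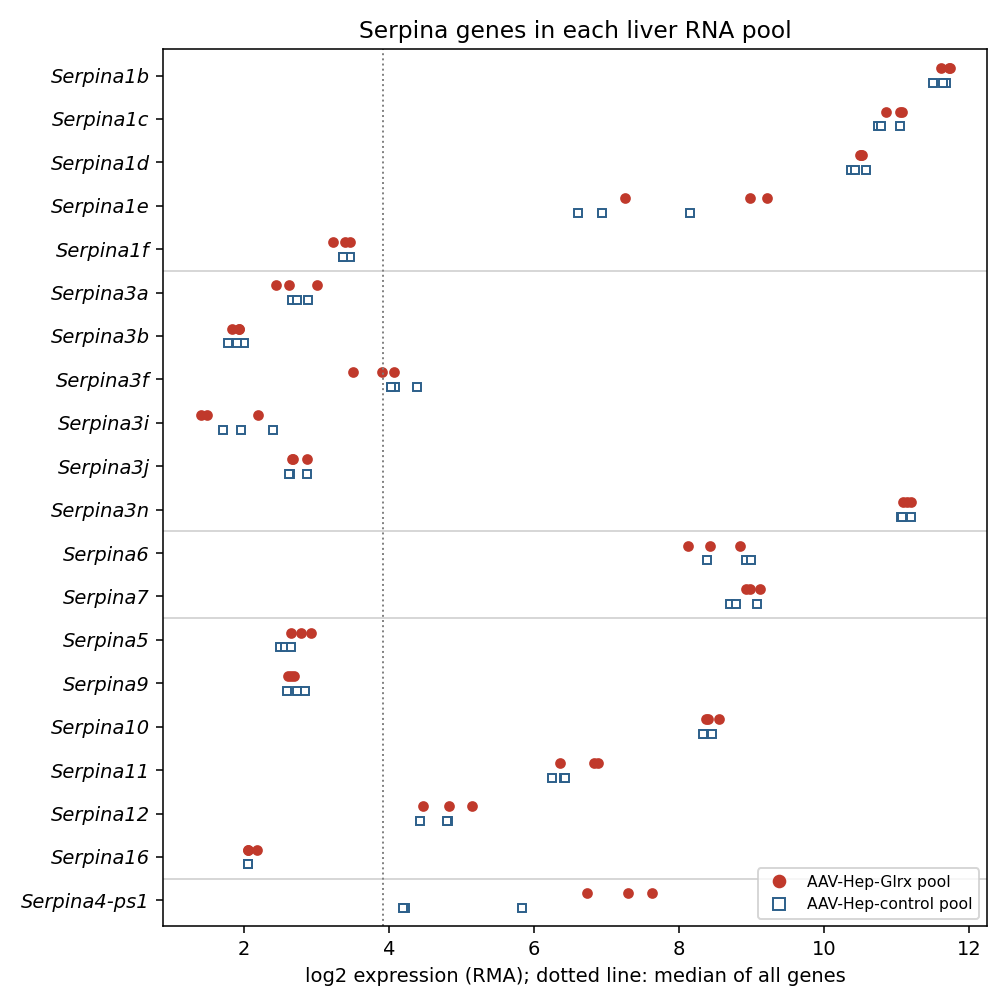
Log2 expression of the 20 Serpina genes (rows, grouped by role) in each liver RNA pool, with filled red circles for the 3 AAV-Hep-Glrx pools and open blue squares for the 3 AAV-Hep-control pools. The dotted line is the median gene, above which 12 members lie. Serpina4-ps1 in the bottom row is the member whose pools do not overlap, and Serpina1e has pools spread from 6.61 to 9.21.

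Serpina4-ps1 had the largest difference in the family. It was 7.63, 7.30 and 6.74 in AAV-Hep-Glrx 1, 2 and 3, against 4.22, 4.20 and 5.83 in AAV-Hep-control 1, 2 and 3. All 3 AAV-Hep-Glrx pools were the higher ones, and AAV-Hep-control 3 stood nearest to them, well above the 2 other AAV-Hep-control pools, which were almost equal. The mean was 7.22 ± 0.45 in AAV-Hep-Glrx and 4.75 ± 0.94 in AAV-Hep-control (SD, n = 3 pools each), a log2 difference of 2.47 (SE 0.44) or 5.54-fold. The fit gave it an adjusted p of 0.847 (limma). With 1 pool left out, the difference ran from 2.19 without AAV-Hep-control 2 to 3.01 without AAV-Hep-control 3, and the adjusted p, which ranged from 0.121 to 0.939 over 13 settings, was lowest without AAV-Hep-control 3. The gene's spread within groups was wide, a pooled SD of 0.735 that stood at the 99.6 percentile of all genes.

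The pseudogene lies in the serpin cluster on chromosome 12, where 19 of the 20 members are, and the RefSeq order places it between the members Serpina12 and Serpina5. Serpina5, the protein C inhibitor, which in the mouse is made mainly in the reproductive tract, was 2.80, 2.93 and 2.65 in AAV-Hep-Glrx 1, 2 and 3, against 2.50, 2.57 and 2.65 in AAV-Hep-control 1, 2 and 3, a difference of 0.22 (SE 0.10) at a level below the median gene. Serpina12, or vaspin, an adipokine that inhibits a kallikrein, was 4.83, 5.15 and 4.47 in AAV-Hep-Glrx 1, 2 and 3, against 4.82, 4.43 and 4.80 in AAV-Hep-control 1, 2 and 3, a difference of 0.13 (SE 0.18). Neither neighbor had pools that separated. The differences at the neighbors were a small part of that at Serpina4-ps1, and that of Serpina12 turned to -0.04 without AAV-Hep-Glrx 2.

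**Figure D2:**
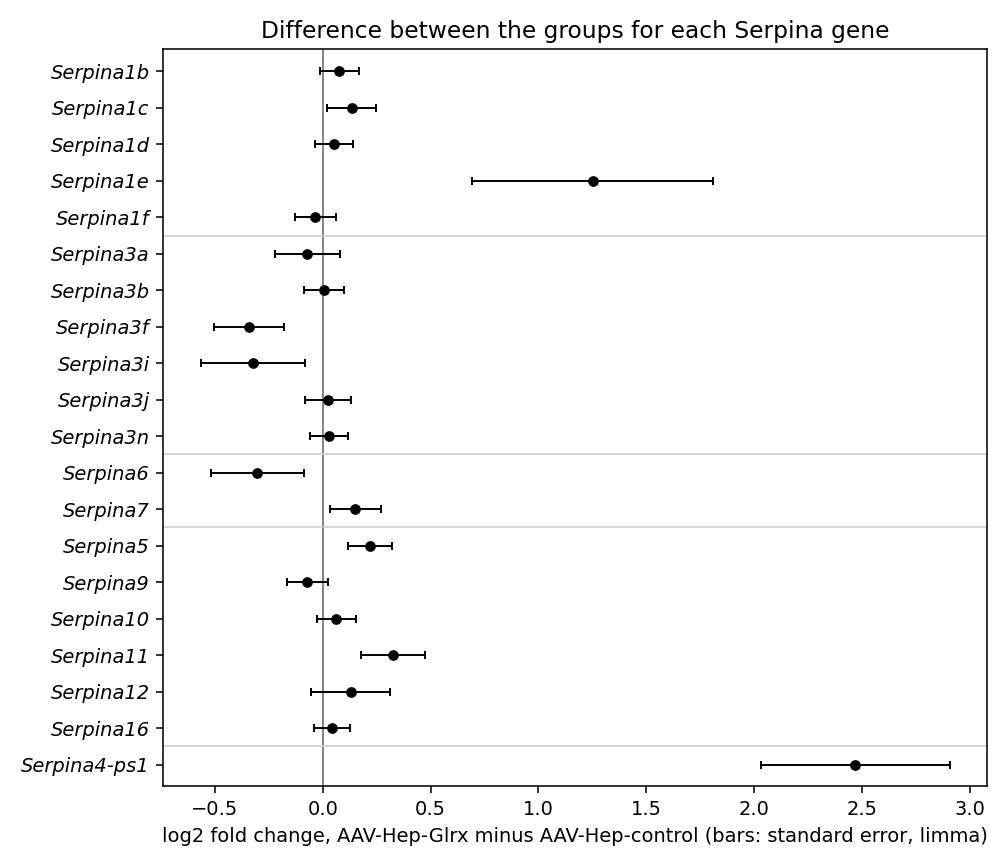
Log2 fold change of each Serpina gene, AAV-Hep-Glrx minus AAV-Hep-control (points), with the SE of the limma fit over 3 pools per group (bars). Serpina4-ps1 at 2.47 and Serpina1e at 1.25 stand to the right of the other 18 members, which lie between -0.34 and 0.32.

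Of the 5 alpha-1 antitrypsin genes among the members, 4 had a higher mean in AAV-Hep-Glrx, and 1 of them, Serpina1e, by a large amount. Serpina1e was 8.98, 9.21 and 7.26 in AAV-Hep-Glrx 1, 2 and 3, against 8.15, 6.61 and 6.94 in AAV-Hep-control 1, 2 and 3. AAV-Hep-Glrx 1 and 2 were high, AAV-Hep-Glrx 3 fell among the AAV-Hep-control pools, and AAV-Hep-control 1 lay above it, so the groups overlapped. The mean was 8.48 ± 1.07 in AAV-Hep-Glrx and 7.23 ± 0.81 in AAV-Hep-control (SD, n = 3 pools each), a log2 difference of 1.25 (SE 0.56) or 2.38-fold. Its pooled SD of 0.947 was at the 99.8 percentile of all genes, and without AAV-Hep-Glrx 3 the difference was 1.86 while without AAV-Hep-Glrx 2 it was 0.89.

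The other hepatic copies among the members did not show such a spread on the log2 scale. Serpina1b was 11.72, 11.73 and 11.61 in AAV-Hep-Glrx 1, 2 and 3, against 11.68, 11.51 and 11.65 in AAV-Hep-control 1, 2 and 3, a difference of 0.08 (SE 0.09). Serpina1c was 11.07, 11.05 and 10.86 in AAV-Hep-Glrx 1, 2 and 3, against 11.05, 10.75 and 10.79 in AAV-Hep-control 1, 2 and 3, a difference of 0.13 (SE 0.11). The pools of both genes overlapped. In both, as in Serpina1e and Serpina12, the upper 3 pools were AAV-Hep-Glrx 1 and 2 and AAV-Hep-control 1. Serpina1d was 10.51, 10.50 and 10.53 in AAV-Hep-Glrx 1, 2 and 3, against 10.58, 10.38 and 10.42 in AAV-Hep-control 1, 2 and 3, a difference of 0.05 (SE 0.09). AAV-Hep-control 2 was the lowest pool in all 4 hepatic copies among the members, Serpina1e included. Serpina1f, a copy known mainly from the mouse epididymis, lay below the median gene at 3.23, 3.39 and 3.47 in AAV-Hep-Glrx 1, 2 and 3, against 3.47, 3.36 and 3.37 in AAV-Hep-control 1, 2 and 3, a difference of -0.03 (SE 0.10). Transcripts this similar can bind the same probes, so part of the signal given to 1 copy may come from another, and how far this touched each copy is uncertain. The same holds for the Serpina3 copies. The loci of Serpina1f, Serpina3i and Serpina12 each overlap a predicted gene in RefSeq, and whether that adds to their signal was not tested. Serpina1b, Serpina1c and Serpina1d, which share the upstream stretch, had log2 differences of 0.13 or less where Serpina1e had 1.25. Their mean levels over the pools of both groups were 11.65, 10.93 and 10.49, against 7.86 for Serpina1e. At a higher level, the same change in unlogged signal gives a smaller log2 difference. Whether the copies changed differently in unlogged signal was not tested, nor was the part of the shared stretch.

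**Figure D3:**
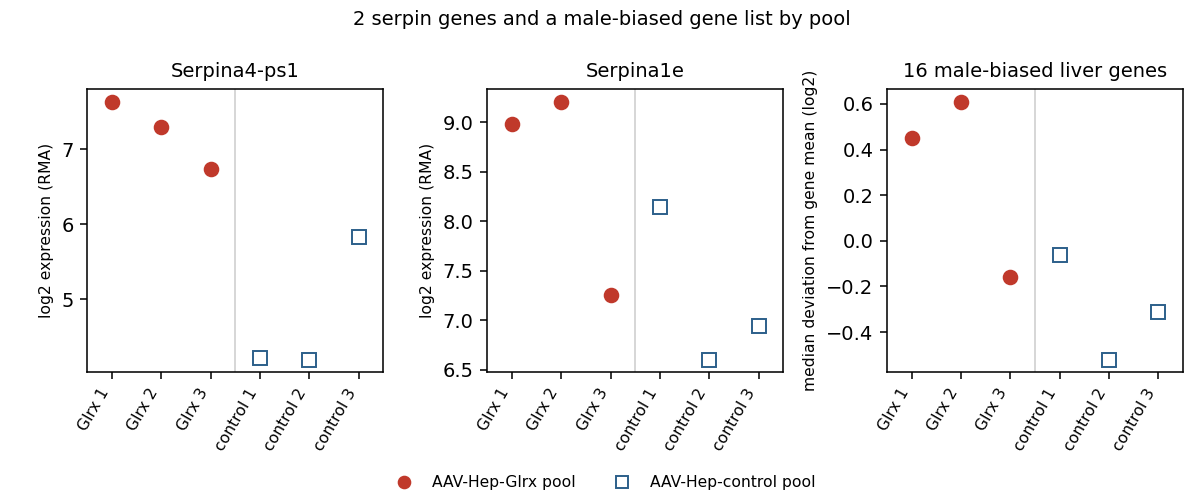
Log2 expression of Serpina4-ps1 (left) and Serpina1e (middle) in each pool, and the median deviation of 16 male-biased liver genes from their own means (right, log2), with filled red circles for AAV-Hep-Glrx and open blue squares for AAV-Hep-control. Serpina1e and the median of the male-biased genes rank the 6 pools in the same order, with AAV-Hep-Glrx 2 highest and AAV-Hep-control 2 lowest. Serpina4-ps1 has AAV-Hep-Glrx 1 highest.

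A list of genes with higher expression in male than in female mouse liver, a pattern set by pulses of growth hormone, had the largest median difference of the gene lists. The list was chosen with earlier results of these data known. All 16 measured genes had a higher mean in AAV-Hep-Glrx (49.5% of all genes), with a median log2 difference of 0.59. With 1 pool left out, that median ran from 0.41 without AAV-Hep-control 2 to 0.88 without AAV-Hep-Glrx 3. Of the 16, 8 were higher at an unadjusted p under 0.05 (limma, 2.76% of all genes), 4 were higher with pools that did not overlap (5.51% of all genes), and 0 passed the adjusted threshold. With each gene set to its own mean, the list's median was 0.45, 0.61 and -0.16 in AAV-Hep-Glrx 1, 2 and 3, against -0.06, -0.52 and -0.31 in AAV-Hep-control 1, 2 and 3. This order of the list's median is that of the pools in Serpina1e, in which AAV-Hep-control 1 also ranks above AAV-Hep-Glrx 3. Slco1a1 kept this order, but not every gene of the list did. In Cyp4a12a, AAV-Hep-Glrx 3 lay above AAV-Hep-control 1. Slco1a1, an organic anion transporter of hepatocytes, was 7.03, 8.39 and 5.87 in AAV-Hep-Glrx 1, 2 and 3, against 5.88, 4.94 and 5.41 in AAV-Hep-control 1, 2 and 3, a difference of 1.69 (SE 0.56). Cyp4a12a, a fatty acid hydroxylase, was 6.54, 6.62 and 6.18 in AAV-Hep-Glrx 1, 2 and 3, against 5.42, 3.88 and 5.30 in AAV-Hep-control 1, 2 and 3, a difference of 1.58 (SE 0.38). Among the 16 measured female-biased genes, 7 means were higher and 9 lower, with a median of -0.06, which was 0.0164 without AAV-Hep-control 2, and 0 genes at an unadjusted p under 0.05. The part of this pattern in the values of Serpina1e was not tested.

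The 6 antichymotrypsin genes among the members had 3 higher and 3 lower means in AAV-Hep-Glrx and a median difference of -0.03. Serpina3n, an acute phase protein of the mouse, was 11.19, 11.09 and 11.15 in AAV-Hep-Glrx 1, 2 and 3, against 11.06, 11.20 and 11.08 in AAV-Hep-control 1, 2 and 3, a difference of 0.03 (SE 0.09). Serpina3f was 3.51, 3.90 and 4.08 in AAV-Hep-Glrx 1, 2 and 3, against 4.09, 4.03 and 4.39 in AAV-Hep-control 1, 2 and 3, a difference of -0.34 (SE 0.16) or 1.27-fold lower. AAV-Hep-Glrx 1 was the lowest pool and AAV-Hep-Glrx 3 reached into the AAV-Hep-control pools, and the difference was -0.18 without AAV-Hep-Glrx 1 and -0.47 without AAV-Hep-Glrx 3. Serpina3i was 1.41, 2.20 and 1.49 in AAV-Hep-Glrx 1, 2 and 3, against 2.40, 1.96 and 1.72 in AAV-Hep-control 1, 2 and 3, a difference of -0.32 (SE 0.24) near the bottom of the scale, with overlapping pools, and ran from -0.57 without AAV-Hep-Glrx 2 to -0.14 without AAV-Hep-control 1. Serpina3a (-0.07, SE 0.15), Serpina3b (0.01, SE 0.09) and Serpina3j (0.02, SE 0.11) also lay below the median gene.

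The levels of immune cell markers are given beside Serpina3f, and 0 of them passed the adjusted threshold (limma). The B cell markers had a median difference of -0.29. Of 9, 3 were lower at an unadjusted p under 0.05 (limma, 3.01% of all genes). Their median deviation was -0.28, -0.21 and 0.08 in AAV-Hep-Glrx 1, 2 and 3, against -0.05, 0.23 and 0.17 in AAV-Hep-control 1, 2 and 3. AAV-Hep-Glrx 1 was the lowest pool in Serpina3f and in the B cell markers, and also in the T cell, Kupffer cell, neutrophil, endothelial cell and hepatocyte markers and in Serpina1f, Serpina3a and Serpina3i. For T cell markers, 7 of 9 means were lower (50.4% of all genes) and 2 higher, with a median of -0.11. Of the 9, 2 were lower at an unadjusted p under 0.05 (limma, 3.01% of all genes). Their summed level overlapped, at 151 to 164 in AAV-Hep-Glrx pools and 162 to 198 in AAV-Hep-control pools. Kupffer cell markers had 9 of 10 lower means, a median of -0.09, and a summed level of 1136 to 1438 in AAV-Hep-Glrx pools and 1282 to 1768 in AAV-Hep-control pools. Medians for the neutrophil, stellate cell, endothelial cell and cholangiocyte markers lay between -0.03 and 0.01. The part of these cells in the values of Serpina3f was not tested. Serpina9, known from human germinal center B cells, had a difference of -0.07 (SE 0.09) at a level below the median gene.

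The hormone carriers went opposite ways on average, both with overlapping pools. Serpina7, thyroxine-binding globulin, whose promoter both vectors are built on, was 9.12, 8.98 and 8.92 in AAV-Hep-Glrx 1, 2 and 3, against 8.71, 8.79 and 9.07 in AAV-Hep-control 1, 2 and 3. AAV-Hep-control 3 lay within the AAV-Hep-Glrx pools, and the difference was 0.15 (SE 0.12) or 1.11-fold, between 0.08 and 0.26 with any 1 pool left out. The array reads the transcript of the gene itself and not the promoter in the vector. Serpina6, corticosteroid-binding globulin, was 8.44, 8.13 and 8.84 in AAV-Hep-Glrx 1, 2 and 3, against 8.38, 8.93 and 8.997 in AAV-Hep-control 1, 2 and 3. Its difference was -0.30 (SE 0.22) or 1.23-fold lower, between -0.50 and -0.13 with any 1 pool left out. AAV-Hep-control 1 fell among the AAV-Hep-Glrx pools, and the pooled SD of 0.347 stood at the 95.4 percentile of all genes. Agt, the angiotensin precursor and a clade A serpin under another symbol, was 8.28, 8.15 and 8.38 in AAV-Hep-Glrx 1, 2 and 3, against 8.23, 8.51 and 8.25 in AAV-Hep-control 1, 2 and 3, a difference of -0.06 (SE 0.11).

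Among the remaining members, Serpina11, a secreted liver serpin of little known function that lies next to Serpina1e in the RefSeq order, was 6.88, 6.83 and 6.36 in AAV-Hep-Glrx 1, 2 and 3, against 6.25, 6.42 and 6.43 in AAV-Hep-control 1, 2 and 3. The difference was 0.32 (SE 0.15) or 1.25-fold. As in Serpina1e, AAV-Hep-Glrx 1 and 2 were high and AAV-Hep-Glrx 3 lay within the AAV-Hep-control pools. Serpina10, the protein Z-dependent inhibitor of clotting factor Xa, was 8.55, 8.38 and 8.40 in AAV-Hep-Glrx 1, 2 and 3, against 8.35, 8.33 and 8.46 in AAV-Hep-control 1, 2 and 3, a difference of 0.06 (SE 0.09). Serpina16 was listed at the same value, 2.06, in 5 of the 6 pools and at 2.19 in AAV-Hep-Glrx 2.

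**Figure D4:**
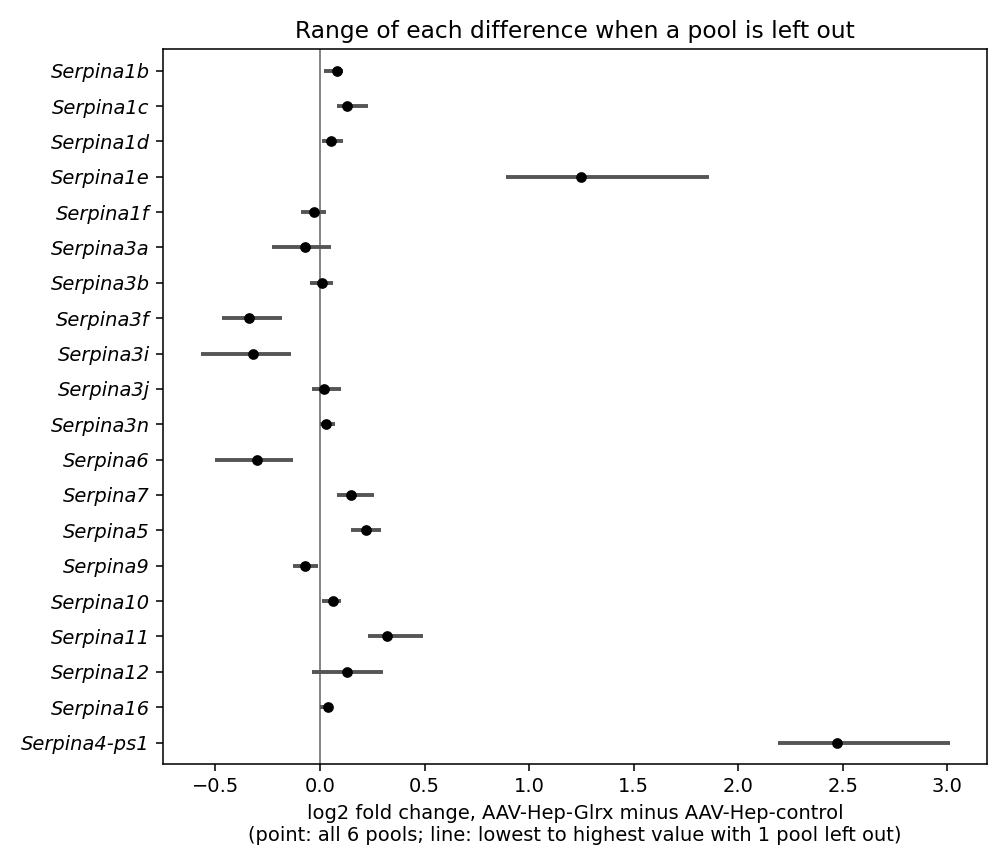
Log2 fold change of each Serpina gene, AAV-Hep-Glrx minus AAV-Hep-control, with all 6 pools (points) and the lowest and highest value when any 1 pool is left out (lines). The line of Serpina4-ps1 runs from 2.19 to 3.01 and that of Serpina1e from 0.89 to 1.86, while those of Serpina3f, Serpina3i, Serpina6 and Serpina9 stay below 0.

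The lists of genes that act with or around the family had median differences near that of all genes. Serpins of the other clades had 21 higher and 14 lower means among 35, a median of 0.05, and at an unadjusted p under 0.05 (limma) 1 gene higher and 2 lower, with 2 genes above and 2 below without overlap. The largest was Serpinb10, a serpin of blood cells, at -0.27 (SE 0.10), with levels of 1.78 to 2.24, near the bottom of the scale. Of all genes, 49.5% had higher and 50.4% lower means, and 2.76% were higher and 3.01% lower at that p. Without overlap, 5.51% of all genes lay above and 5.38% below. Proteases and ligands that clade A serpins meet had 18 higher and 8 lower means among 26, with a median of 0.04. At that p, 0 were higher and 1 lower, and 3 lay above and 1 below without overlap. Mcpt1, a mast cell protease, was at -0.41 (SE 0.14), with levels of 1.66 to 2.48, near the bottom of the scale. F11, clotting factor XI, was at 0.26. Of the receptors for the carried hormones, Nr3c1, the glucocorticoid receptor, differed by 0.01 and Thrb, the thyroid hormone receptor of liver, by -0.12. Dio1, an enzyme that activates thyroxine, differed by 0.22 (SE 0.14), with overlapping pools.

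Liver transcription factors had 11 higher and 5 lower means among 16, a median of 0.05 (0.0148 without AAV-Hep-control 1), and 1 higher and 1 lower at that p. Onecut1, a factor of hepatocyte development, was 7.62, 6.91 and 7.97 in AAV-Hep-Glrx 1, 2 and 3, against 5.36, 6.89 and 7.38 in AAV-Hep-control 1, 2 and 3, with overlap and a difference of 0.96 (SE 0.49). Cebpb, a factor of the acute phase response, differed by -0.31 (SE 0.10) with all AAV-Hep-Glrx pools below, and Prox1 by 0.29 (SE 0.10) with all AAV-Hep-Glrx pools above. Acute phase genes had 17 higher and 9 lower means among 26, a median of 0.04, and 1 higher and 0 lower at that p, with Apcs, serum amyloid P, at 0.42 (SE 0.15). The secretory pathway that folds and checks serpins had 11 higher and 9 lower means among 20, a median of 0.02, and 0 genes at that p, with Syvn1, a ubiquitin ligase for misfolded proteins, at -0.31. The signs of both medians rested on single pools, since that of the acute phase genes was -0.0168 without AAV-Hep-Glrx 1, and that of the secretory pathway was -0.0596 without AAV-Hep-control 2 and -0.0518 without AAV-Hep-Glrx 2. None of these lists had a gene past the adjusted threshold. Of all genes, 49.5% had higher and 50.4% lower means. At an unadjusted p under 0.05 (limma), 2.76% of all genes were higher and 3.01% lower.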

How the data were processed

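Liver RNA pools of AAV-Hep-Glrx and AAV-Hep-control mice, 3 per group, were hybridized to Affymetrix Mouse Gene 2.0 ST arrays. The deposited table gives 1 log2 value for each Entrez gene and array, which the authors computed with the Robust Multiarray Average and Brainarray 24.0.0 gene definitions in affy (1.62.0 in the methods, 1.61.0 in the submitters' processing notes) under R 3.6.0. That method gives all arrays the same probe distribution, so a shift of most genes in 1 direction could not be seen, and near the low end, where signal approaches background, differences are understated. The genome build behind them is not stated in the sources used. The samples were grouped by the vector and number in their labels.

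The values, from 0.807 to 12.9, were fitted in limma 3.58.1 (lmFit, eBayes; R 4.3.3) without covariates or filter, and adjusted by Benjamini-Hochberg over 27381 genes. The threshold was an adjusted p under 0.1. An exact test of 3 against 3 pools cannot give a two-sided p below 0.1. The number of arrays limits the precision, and since how the mice were divided is not given, p-values measure only the spread between pools.

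Every Serpina gene could be named, with values in each pool for those without overlap, for those with a log2 difference of 0.3 or more in size, for the Serpina1 copies and for the hormone carriers. Other members that were of use to a comparison were added after their values were seen. From each gene list up to 4 genes with the largest difference could be named. The receptors Nr3c1 and Thrb were added after their values were seen. The members, gene lists and marker lists were chosen with earlier results of these data known. Summed marker levels are sums of unlogged values. The steps were tested on simulated data. Alternatives were an intensity trend or a robust prior, a fit with the replicate number as block, array weights, median-centred arrays, a repeated quantile normalization, the brighter genes alone (above the median level), each pool left out in turn, and other thresholds.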

Additional observations from a re-analysis of the deposited data

How the results depend on the processing

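No Serpina gene passed the threshold under any of the alternatives run. The single gene past it over all genes became 0 with another quantile normalization, 0 with the replicate number as a block, 0 at an adjusted p under 0.05, and 0 to 2 with 1 pool left out (2 without AAV-Hep-control 1, and 0 without AAV-Hep-Glrx 1 or 3 or AAV-Hep-control 2 or 3). The deviations of same-numbered pools had correlations of -0.0361, -0.1711 and 0.0205 across genes. Those of differently numbered pools ran from -0.1405 to 0.1781. With 3 pools per group, these values cannot decide whether the numbers pair the pools. Serpina4-ps1 stayed between 2.42 and 2.49 and Serpina1e between 1.24 and 1.36 in the settings that kept all pools. The sign of the difference changed in at least 1 setting for Serpina1f, Serpina3a, Serpina3b, Serpina3j and Serpina12, all small, and the cause was not tested. The 8 members below the median gene have no value when only genes above it are fitted. The median of the serpins of other clades was 0.0713 with centred arrays, 0.0355 with another quantile normalization, 0.025 with genes above the median level, and 0.0113 to 0.0771 with 1 pool left out. That of the proteases and ligands was 0.0024 to 0.0845 with 1 pool left out. The female-biased median was 0.10 with genes above the median level, where fewer genes were fitted.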
